A study of Homo sapiens with 12 samples.

Results

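The 8 human SMAD genes (SMAD1, SMAD2, SMAD3, SMAD4, SMAD5, SMAD6, SMAD7 and SMAD9) and the BMP-induced genes ATOH8 and BAMBI were followed in podocytes treated with calcineurin inhibitors. These 10 genes were taken by symbol from a table of 62262 genes, and all 10 were among the 19784 genes with enough counts to be tested. They were chosen by an earlier result of these same libraries, in which targets of BMP-SMAD signalling were higher in tacrolimus than in DMSO. Their tacrolimus values are therefore a description: no p-value is printed for them, and counts of calls in tacrolimus comparisons are given for reference and support nothing. Against DMSO, SMAD6, SMAD7, SMAD9 and ATOH8 were higher in every tacrolimus library than in any of the 9 other libraries. SMAD1, SMAD2, SMAD3, SMAD4, SMAD5 and BAMBI did not share that pattern. In the main edgeR fit, by group only, none of the 10 passed an adjusted p under 0.05 against DMSO in tacrolimus, cyclosporine A or voclosporin. For tacrolimus the number passing depended on the fit and on whether the replicate number was modelled, as the closing section gives.

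SMADs carry signals of the TGF-beta family from receptors at the cell surface to the nucleus. Receptor SMADs are phosphorylated by the activated receptors, SMAD1, SMAD5 and SMAD9 (also called SMAD8) mainly after BMP ligands and SMAD2 and SMAD3 after TGF-beta and activin, and then pair with the common SMAD, SMAD4. The inhibitory SMADs, SMAD6 and SMAD7, are themselves induced by the pathway and damp it, and TGF-beta signalling is well known for its part in podocyte injury and scarring of the glomerulus.

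The cells were a conditionally immortalized human podocyte line, a model of the epithelial cells that wrap the capillaries of the kidney's filter. It carries a temperature-sensitive SV40 T antigen, and all groups had been differentiated at the temperature that switches this antigen off. The control group received the vehicle DMSO. The treated groups received 100 nM of tacrolimus (TAC), of voclosporin (VCS) or of cyclosporine A (CSA), drugs that block the phosphatase calcineurin. Exposure lasted 24 h, and each of the 4 groups had 3 libraries. Nothing in the labels says that the libraries of a group came from separate cultures, so p-values measure only the spread between these libraries. All libraries come from this 1 line. Of its defining markers, ACTN4 ran from 1331 to 1602 CPM (library-scaled counts), while NPHS1, which encodes the slit diaphragm protein nephrin, had 1 to 11 counts per library.

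Library totals ran from 28808213 to 36077072 counts. Mitochondrial transcripts took 9.68 to 13.4% of the counts in the library numbered 3 of each group and 5.82 to 8.12% in the others. Endothelial markers summed to 4.39 to 11.8 CPM in TAC, 5.38 to 10.2 in CSA, 8.78 to 14.6 in VCS and 9.12 to 15.5 in DMSO, with 1 of 11 tested markers having a TAC-against-DMSO log2 fold change above 0 and EMCN at under 10 counts in every library. Airway and basal epithelial markers summed to 16.1 to 21.2 CPM in TAC, 12.1 to 20.5 in CSA, 18.5 to 55.6 in VCS and 22.4 to 43.0 in DMSO. Of 8 tested, 2 had a TAC-against-DMSO fold change above 0 and 1, SFTPA1, passed edgeR's threshold. Both sums were about as low in CSA as in TAC. The airway sum mixed genes of either direction. KRT5 had 1.21 to 2.40 CPM in TAC and 5.55 to 12.9 in DMSO, while SFTPB had 12.5 to 15.7 in TAC and 7.22 to 10.15 in DMSO. The part of these differences in the results below was not tested. In bulk RNA, fewer cells of a type and less RNA per cell cannot be told apart.

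The promoters of the genes that differed most between the groups, and of BAMBI for contrast, are shown because SMAD proteins bind short elements in DNA. RefSeq windows of 250 bases before the start (GRCh38.p14) were matched for all 10 genes, in 21 windows. They were searched on both strands for the GC-rich element GGCGCC and for the SMAD box GTCT, which reads AGAC on the other strand. Capitals mark these motifs. Windows are trimmed so that at most 30 bases annotated as exon in GENCODE 29 remain. The SMAD7, SMAD9 and ATOH8 windows shown lie inside the GENCODE 29 spans of their genes, and those of SMAD6 and BAMBI reach into them.
SMAD6 (chr15:66701986-66702235, plus strand): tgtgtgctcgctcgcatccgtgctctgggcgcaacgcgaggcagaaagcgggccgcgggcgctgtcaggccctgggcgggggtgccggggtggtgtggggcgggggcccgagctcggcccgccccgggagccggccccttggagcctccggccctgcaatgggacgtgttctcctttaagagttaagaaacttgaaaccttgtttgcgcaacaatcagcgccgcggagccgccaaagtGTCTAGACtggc
SMAD7 (chr18:48949334-48949583, minus strand, a start inside the gene): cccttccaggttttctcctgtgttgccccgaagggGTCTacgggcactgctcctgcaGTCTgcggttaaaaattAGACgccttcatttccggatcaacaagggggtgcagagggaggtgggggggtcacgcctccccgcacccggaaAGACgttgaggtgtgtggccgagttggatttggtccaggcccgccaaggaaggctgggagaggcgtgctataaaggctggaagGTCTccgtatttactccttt
SMAD9 (chr13:36920243-36920488, minus strand): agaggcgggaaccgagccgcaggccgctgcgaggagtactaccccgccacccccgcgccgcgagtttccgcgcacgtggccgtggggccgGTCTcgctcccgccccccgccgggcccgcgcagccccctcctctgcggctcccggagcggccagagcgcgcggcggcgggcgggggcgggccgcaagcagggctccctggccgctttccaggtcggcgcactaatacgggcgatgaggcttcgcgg
ATOH8 (chr2:85753741-85753923, plus strand): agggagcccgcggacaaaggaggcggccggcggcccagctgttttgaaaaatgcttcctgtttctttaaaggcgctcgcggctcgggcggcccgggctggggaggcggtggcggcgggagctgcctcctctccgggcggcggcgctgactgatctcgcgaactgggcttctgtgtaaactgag
BAMBI (chr10:28677271-28677371, plus strand): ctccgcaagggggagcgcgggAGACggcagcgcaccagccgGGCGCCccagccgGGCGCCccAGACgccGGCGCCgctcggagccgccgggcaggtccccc

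GGCGCC was present in 7 of the 21 windows, which belong to SMAD1, SMAD2, SMAD3, SMAD4 and BAMBI, and in 16.4% of all 35116 windows of this length. Windows of 1 gene can overlap and are not independent. BAMBI held it 3 times, at 209, 196 and 181 bases before the start. The windows of SMAD6, SMAD7, SMAD9 and ATOH8 had no such match, which says only that these letters are not in these windows. GTCT was present in 15 of the 21 windows, from 8 of the 10 genes, and in 77.5% of all windows. In SMAD6, 2 adjacent copies on opposite strands form the palindrome GTCTAGAC, 12 bases before the RefSeq start. The GENCODE 29 start of the gene lies inside it, and 8 bases of this window are annotated as exon. That palindrome, searched after its match had been seen, was in 0.182% of all windows. A match is a description of the sequence and not a binding site.

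Among the BMP receptor SMADs, SMAD9 stood apart from SMAD1 and SMAD5. SMAD9 (chr13:36844831-36920765, minus strand, GRCh38 with GENCODE 29) had 6.36, 7.14 and 5.97 CPM in DMSO and 12.9, 12.4 and 9.74 CPM in TAC. In CSA it had 6.85, 6.40 and 6.14 CPM, and in VCS 6.37, 7.12 and 5.26 CPM. All TAC libraries lay above all others, and the DMSO, CSA and VCS libraries overlapped. The mean was 11.6 ± 1.67 CPM in TAC against 6.49 ± 0.595 in DMSO (SD, n = 3 each), a log2 fold change of 0.84 (SE 0.15, 95% interval 0.52 to 1.17). Counts behind these values ran from 147 to 425, the lowest of the 10 genes.

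SMAD5 (chr5:136132845-136188747, plus strand), an effector of BMP signalling like SMAD9, had 97.1, 80.6 and 82.9 CPM in DMSO and 112, 103 and 98.7 CPM in TAC. Its CSA libraries had 97.6, 77.6 and 97.9 CPM, and its VCS libraries 115, 99.2 and 89.1 CPM. The TAC libraries lay above the DMSO and CSA libraries but overlapped VCS. The log2 fold change was 0.27 in TAC (95% interval 0.00 to 0.53) and 0.22 in VCS (95% interval -0.04 to 0.48, adjusted p = 0.963, edgeR).

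SMAD1 (chr4:145481194-145558079, plus strand), the remaining BMP receptor SMAD, had 16.8, 16.7 and 11.97 CPM in DMSO and 14.9, 18.2 and 14.7 CPM in TAC. In CSA it had 13.8, 15.99 and 14.7 CPM, and in VCS 14.98, 16.8 and 14.5 CPM. All groups overlapped, and DMSO replicate 3 was the lowest library. The log2 fold change in TAC was 0.07 (SE 0.14), and -0.07 without DMSO replicate 3.

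The TGF-beta receptor SMADs differed little between groups. SMAD2 (chr18:47808957-47931146, minus strand) had 80.4, 74.4 and 68.8 CPM in DMSO and 86.4, 85.3 and 80.3 CPM in TAC. Its CSA libraries had 82.8, 78.2 and 70.3 CPM and its VCS libraries 83.9, 80.2 and 74.7 CPM. TAC and DMSO overlapped by a narrow margin, and the log2 fold change was 0.17 (SE 0.09, 95% interval -0.02 to 0.37).

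SMAD3 (chr15:67063763-67195195, plus strand), the partner of SMAD2 in TGF-beta signalling, had 151, 139 and 136 CPM in DMSO and 146, 129 and 125 CPM in TAC. It had 155, 148 and 150 CPM in CSA and 154, 139 and 132 CPM in VCS. It was the 1 gene of the 10 with a negative fold change in TAC against DMSO, -0.09 on the log2 scale (SE 0.09), and its TAC libraries all lay below its CSA libraries. The log2 fold change of TAC against CSA was -0.18 (SE 0.09, 95% interval -0.38 to 0.02).

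SMAD4 (chr18:51028394-51085045, plus strand), the shared partner of all receptor SMADs, varied least within groups. It had 65.0, 65.0 and 65.8 CPM in DMSO and 66.9, 67.8 and 67.9 CPM in TAC. It had 64.8, 62.3 and 66.6 CPM in CSA and 68.4, 57.9 and 65.7 CPM in VCS. Its TAC libraries did not overlap DMSO, but the log2 fold change was 0.05 (SE 0.08), so a gap between libraries here went with a difference inside the model's error.

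Both inhibitory SMADs were higher in TAC. SMAD6 (chr15:66702228-66782848, plus strand), which acts mainly on BMP receptors, had 10.6, 9.53 and 10.9 CPM in DMSO and 16.8, 15.4 and 15.4 CPM in TAC. Its CSA libraries had 10.6, 10.99 and 9.82 CPM and its VCS libraries 10.4, 9.94 and 9.12 CPM. The TAC libraries stood clear of the 9 others, which overlapped. The mean was 15.8 ± 0.813 CPM in TAC against 10.3 ± 0.720 in DMSO (SD, n = 3 each), a log2 fold change of 0.61 (SE 0.10, 95% interval 0.39 to 0.84).

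SMAD7 (chr18:48919853-48952052, minus strand), which blocks both TGF-beta and BMP receptors, had 43.8, 40.2 and 34.6 CPM in DMSO and 57.4, 55.6 and 50.8 CPM in TAC. It had 46.0, 41.8 and 38.0 CPM in CSA and 45.0, 40.7 and 32.1 CPM in VCS. The lowest TAC library was above the highest of the others. The log2 fold change was 0.47 against DMSO (SE 0.13, 95% interval 0.19 to 0.74), the smallest of the 4 genes with this pattern. SMAD6 and SMAD3 lie 280914 bases apart on chromosome 15 in the same orientation, and their fold changes in TAC had opposite signs.

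ATOH8 (chr2:85751344-85788066, plus strand), a basic helix-loop-helix factor induced by BMP signalling, had the largest fold change of the 10. It had 16.8, 15.1 and 12.9 CPM in DMSO and 33.6, 30.1 and 23.7 CPM in TAC. Its CSA libraries had 17.9, 15.1 and 14.5 CPM and its VCS libraries 17.9, 12.9 and 11.7 CPM. TAC was again clear of all others. The mean was 29.1 ± 5.03 CPM against 14.9 ± 1.97 in DMSO (SD, n = 3 each), a log2 fold change of 0.96 (SE 0.17, 95% interval 0.59 to 1.33). It also had the widest spread within groups, and its VCS fold change moved from -0.08 to -0.29 without VCS replicate 1 and to 0.03 without VCS replicate 3.

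BAMBI (chr10:28677342-28682939, plus strand), a pseudoreceptor that lacks the kinase domain and dampens signalling, did not follow ATOH8. It had 21.9, 22.1 and 25.8 CPM in DMSO and 26.2, 24.1 and 25.4 CPM in TAC. Its CSA libraries had 24.5, 23.6 and 33.5 CPM and its VCS libraries 22.6, 27.5 and 26.3 CPM. All groups overlapped, and CSA replicate 3 was the highest library. The log2 fold change was 0.12 in TAC (SE 0.13) and 0.23 in CSA (SE 0.13, adjusted p = 0.939, edgeR), or 0.05 in CSA without replicate 3.

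**Figure D1:**
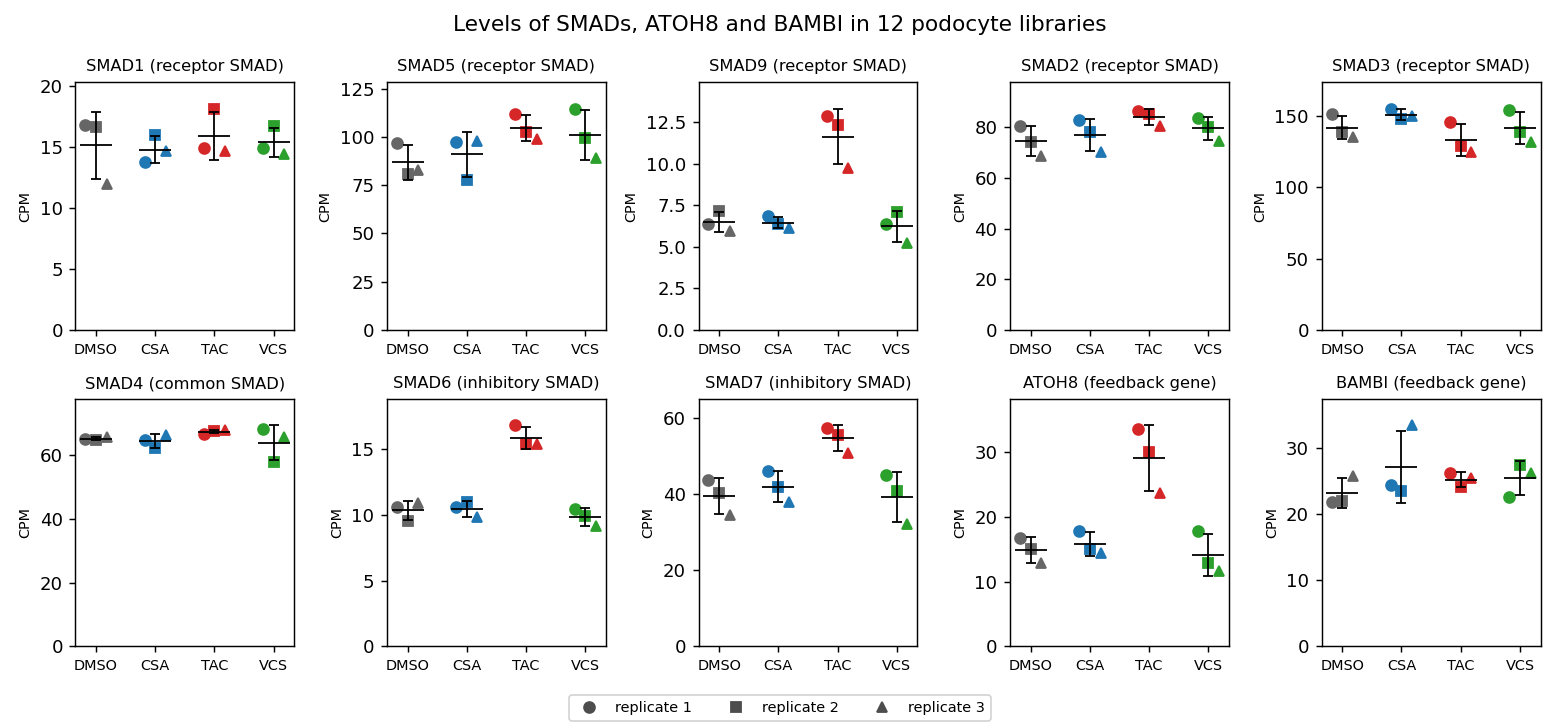
Level of each gene in CPM (vertical axis, from 0) in the 12 libraries by group (horizontal axis). Symbols are replicates and black bars are mean and SD over 3 libraries. SMAD6, SMAD7, SMAD9 and ATOH8 are higher in all TAC libraries than in all others.

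**Figure D2:**
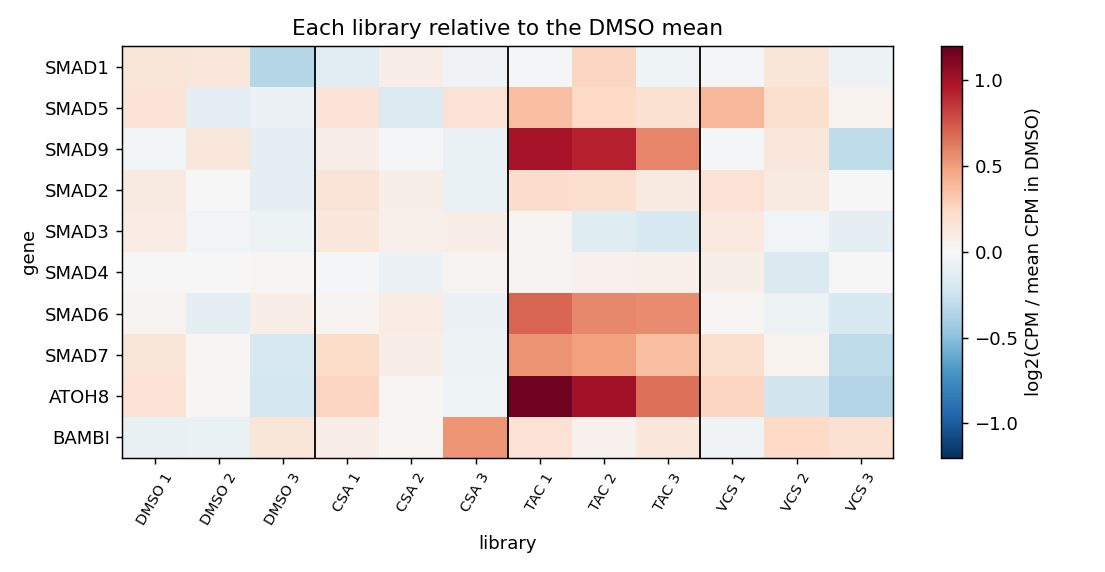
Level of each gene in each library as log2 of CPM over the DMSO mean CPM (color), with genes down the side and libraries across in 4 groups. The TAC columns are red for SMAD9, SMAD6, SMAD7 and ATOH8, and SMAD3 is pale blue in 2 of 3 TAC columns.

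Counted over the 10 genes, 6 were higher in every TAC library than in every DMSO library (SMAD4, SMAD5, SMAD6, SMAD7, SMAD9 and ATOH8), against 5.99% of all genes tested. The same 6 genes were higher than every CSA library (6.74% of all genes), and 1, SMAD3, was lower (6.84%). Against VCS, 4 were higher (4.12%). The 4 genes above all 9 other libraries were SMAD6, SMAD7, SMAD9 and ATOH8, against 0.93% of all genes. These shares are printed for reference only, since the genes were chosen on TAC.

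The calls in the TAC comparisons are listed here for reference, and are no test of genes chosen on TAC. No member passed edgeR's threshold, an adjusted p under 0.05, in TAC against DMSO (0 of 10, against 0.0354% of genes tested), TAC against CSA (0.0303%) or TAC against VCS (0.0253%). At an unadjusted p under 0.05, 5 members were counted against DMSO (SMAD5, SMAD6, SMAD7, SMAD9 and ATOH8), where 4.65% of all genes were. The corresponding counts were 4 against CSA (7.52%) and 4 against VCS (3.63%), SMAD6, SMAD7, SMAD9 and ATOH8 each time. DESeq2 called 3 (SMAD6, SMAD9 and ATOH8) in each of these comparisons, against 0.144%, 0.317% and 0.118% of its genes. With the replicate number added to edgeR's model as a block, 4 (SMAD6, SMAD7, SMAD9 and ATOH8) passed in each. The block also raised the number of all genes passing in each of these comparisons, as the closing section gives. The median log2 fold change in TAC against DMSO was 0.73 over SMAD6, SMAD7, SMAD9 and ATOH8, 0.10 over the 6 others and -0.00 over all genes tested. These 4 genes were grouped by their TAC values, so their higher median was fixed in advance.

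CSA and VCS were tested in full, since the genes were not chosen on them. In CSA against DMSO, 0 of 10 passed edgeR's adjusted threshold (0.0101% of genes tested), 0 had an unadjusted p under 0.05 (3.75%), and DESeq2 called 0 (0.0175%). No member was higher in every CSA library (4.94%) or lower in every one (4.93%). In VCS against DMSO, the counts were also 0 by edgeR (0.00505%), 0 unadjusted (3.27%) and 0 by DESeq2 (0.0175%), with none higher (3.32%) or lower (4.16%) in every library. CSA against VCS gave 0 by edgeR (0.0101%), 0 unadjusted (2.54%) and 0 by DESeq2 (0.0606%).

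The 95% intervals below are for single genes, while the adjusted p-values take all genes tested into account. The intervals therefore do not show how small a change the adjusted tests could have called. In TAC against DMSO, ATOH8 had a log2 fold change of 0.96 (95% interval 0.59 to 1.33) and still missed edgeR's adjusted threshold. For SMAD6, the 95% interval of the log2 fold change was -0.21 to 0.24 in CSA and -0.30 to 0.15 in VCS. SMAD9, the least abundant gene, had -0.33 to 0.32 in CSA and -0.38 to 0.27 in VCS. ATOH8 had the widest, -0.29 to 0.45 in CSA and -0.45 to 0.29 in VCS. Their TAC intervals are printed above as a description only, since the genes were chosen on TAC. Adjusted p-values from edgeR were 0.939 to 0.999 in CSA and 0.963 to 0.998 in VCS, and missing the threshold does not show that the levels were equal.

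**Figure D3:**
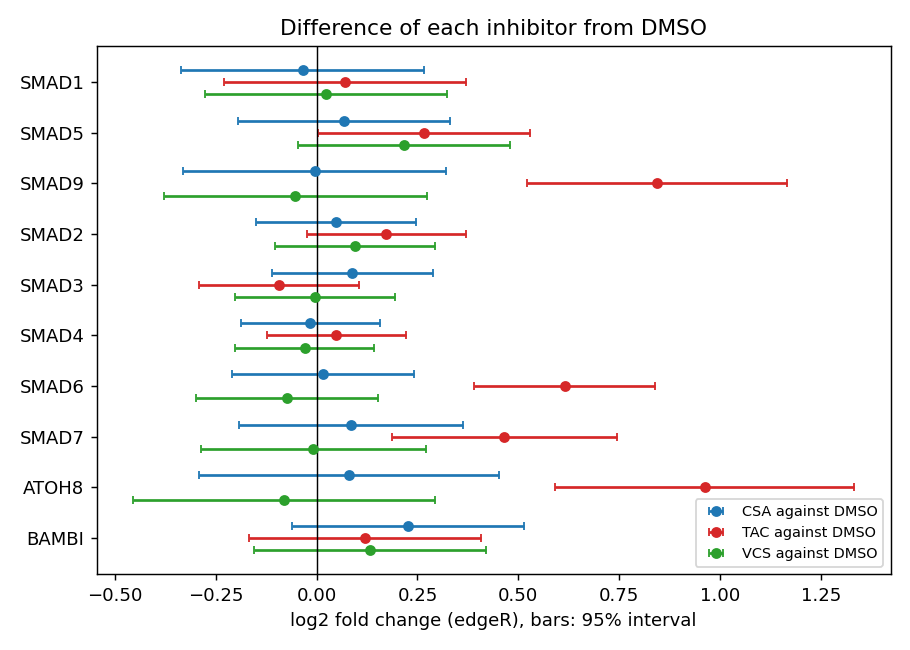
Log2 fold change against DMSO (horizontal axis) of each gene in CSA, TAC and VCS, from edgeR, with 95% intervals. The TAC intervals of SMAD9, SMAD6, SMAD7 and ATOH8 lie above 0, that of SMAD5 starts at 0.00, and the CSA and VCS intervals of all 10 genes include 0. The TAC intervals are a description and no test, since the genes were chosen on TAC.

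Receptor SMADs were set against inhibitory SMADs in each library, as a difference of mean log2 CPM. Inhibitory minus receptor SMADs came to -0.66 ± 0.05 in TAC, against -0.95 ± 0.08 in DMSO, -0.93 ± 0.08 in CSA and -1.05 ± 0.06 in VCS (SD, n = 3 each). The 3 TAC libraries, at -0.65, -0.71 and -0.61, did not overlap the others, whose highest was -0.86. The difference between TAC and DMSO was 0.29. SMAD9 is a receptor SMAD that was itself higher in TAC, and without it the difference was 0.43.

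The feedback genes (SMAD6, SMAD7, ATOH8 and BAMBI) minus receptor SMADs gave -0.72 ± 0.05 in TAC, against -1.01 ± 0.08 in DMSO, -0.94 ± 0.02 in CSA and -1.08 ± 0.04 in VCS (SD, n = 3 each). TAC exceeded DMSO by 0.29, or by 0.43 without SMAD9 and 0.43 without BAMBI. Both classes were therefore mixed: BAMBI overlapped DMSO while SMAD6, SMAD7 and ATOH8 did not, and SMAD1, SMAD2 and SMAD3 overlapped DMSO while SMAD5 and SMAD9 did not.

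**Figure D4:**
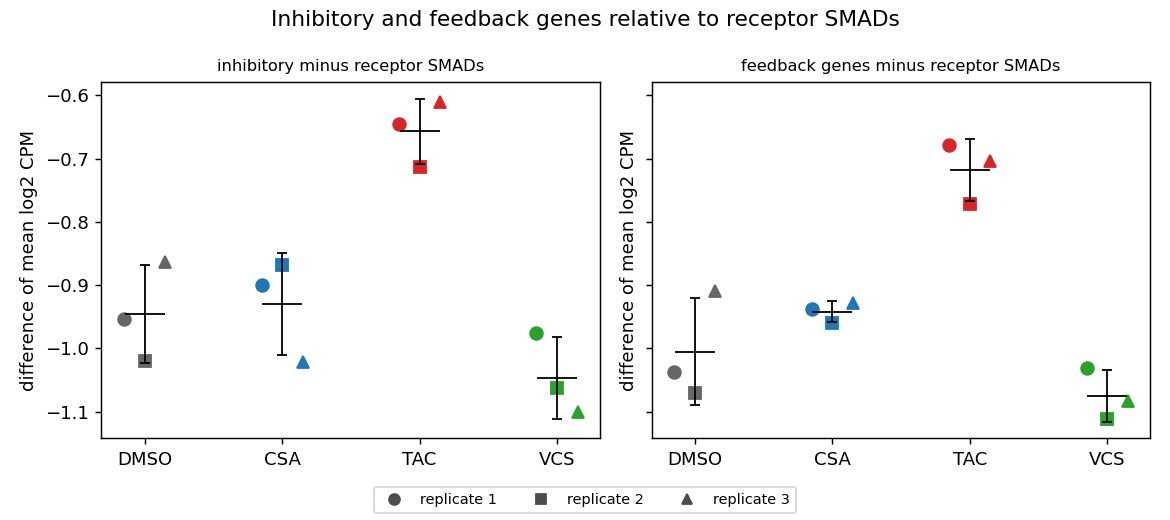
Difference of mean log2 CPM (vertical axis) between inhibitory or feedback genes and receptor SMADs in each of 12 libraries by group. Symbols are replicates and black bars are mean and SD. TAC libraries lie at -0.61 to -0.77 and all others at -0.86 or lower.

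Levels between genes were compared per kilobase of annotated exon, in DMSO. SMAD3 was highest at 15.6 ± 0.897 CPM per kb, followed by BAMBI at 10.0 ± 0.951 and SMAD5 at 9.61 ± 0.988, whose libraries overlapped. SMAD7 stood at 7.85 ± 0.922 and SMAD4 at 4.97 ± 0.0358. SMAD1 (2.502 ± 0.457), ATOH8 (2.46 ± 0.324) and SMAD2 (2.05 ± 0.160) did not separate beyond their spread. SMAD6 (1.21 ± 0.0840) and SMAD9 (1.13 ± 0.104) were lowest and overlapped. The order depends on the length used: with the mean coding transcript, BAMBI moved from place 2 to place 6 and SMAD9 stayed lowest.

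Across the 12 libraries, genes with the most similar profile were found among 13523 genes by Pearson r of log2 CPM. These r values are descriptions, since libraries of a group share their treatment. SMAD7 was most like ATOH8 (r = 0.95, and 0.88 after subtracting group means). Next came ELL2, an elongation factor (0.95 and 0.98), and LRRC61 (0.93 and 0.92). Over the other members, the value after subtracting group means ran from -0.61 (BAMBI) to 0.92 (SMAD2) for SMAD7. For ATOH8 it ran from -0.54 (BAMBI) to 0.91 (SMAD3), so the 0.88 was not particular to SMAD7 and ATOH8. SMAD9 was most like ID1 (0.94 and 0.61), a BMP target, then ATOH8 (0.94 and 0.63) and SAMD11 (0.93 and 0.33).

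SMAD6 was most like SAMD11 (0.93 and -0.09), SMAD9 (0.93 and 0.26) and ATOH8 (0.93 and 0.47), and the lower second values show that its likeness lay mostly between groups. ATOH8 was most like QPRT (0.95 and 0.83), SMAD7 and NPTX1 (0.95 and 0.80). BAMBI was most like TMEM237 (0.92 and 0.91), LRRC32 (0.91 and 0.89) and PTTG1IP (0.89 and 0.90), none of them among the 10 genes. Within groups, the library numbered 3 was the lowest of its group in 4 of 4 groups for SMAD2, SMAD7, SMAD9 and ATOH8, against 10.9% of all genes. Those libraries also had the highest mitochondrial share, and its part in the result was not tested.

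Other genes of the pathway were read from 7 lists chosen with earlier results of these data known. In TAC against DMSO, 49% of all genes tested had a fold change above 0, 4.65% had an unadjusted p under 0.05 and DESeq2 called 0.144%. The BMP-SMAD targets are the genes whose earlier TAC result led to the choice of the 10, so their TAC values are a description. ID1, an inhibitor of basic helix-loop-helix factors, had 91.1 ± 3.86 CPM in TAC against 39.6 ± 5.64 in DMSO and was the 1 of 20 tested targets past edgeR's threshold. A fold change above 0 was found for 15 of the 20, an unadjusted p under 0.05 for 4, and DESeq2 called ID1 and ID3. ID3, of the same family, had 139 ± 11.6 CPM in TAC and 93.4 ± 4.79 in DMSO. By edgeR, ID3 passed as higher in TAC than in CSA and than in VCS, and ID1 as higher in TAC than in CSA. HEY1 had its largest fold change in VCS, 1.01 on the log2 scale (SE 0.27, adjusted p = 0.963, edgeR).

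By edgeR 0 of 16 tested TGF-beta-SMAD targets passed in TAC against DMSO (6 at an unadjusted p under 0.05, and TGFBI by DESeq2). A fold change above 0 against DMSO was found for 13 in TAC, 12 in CSA and 11 in VCS. Over all genes the shares were 49%, 49% and 50.9%. The median log2 fold change of the list was 0.24 in TAC against DMSO, 0.04 against CSA and 0.07 against VCS. TGFBI, a matrix protein named for its induction by TGF-beta, had 1268 ± 58.9 CPM in TAC and 862 ± 58.8 in DMSO. SNAI1, a repressor of epithelial genes, had 10.1 ± 1.64 and 6.79 ± 0.425 CPM, and BHLHE40 had 91.1 ± 4.35 and 70.3 ± 7.43 CPM. Upstream of the SMADs, 0 of 20 ligands, 0 of 16 receptors and 0 of 12 extracellular antagonists passed in TAC against DMSO by edgeR. At an unadjusted p under 0.05 these were 2, 0 and 0, and DESeq2 called 0 in each. GDF5, a BMP-type ligand, passed as lower in TAC than in CSA (75.6 ± 8.85 against 142 ± 18.3 CPM) and than in VCS (134 ± 14.0 CPM). DMSO lay between them at 105 ± 4.56 CPM, and TAC against DMSO did not pass, at -0.48 on the log2 scale (SE 0.12).

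Among 19 SMAD partners and corepressors, 0 passed in TAC against DMSO by edgeR (1 unadjusted, 0 by DESeq2). SKIL, a corepressor that SMAD signalling induces, had a log2 fold change of 0.39 (SE 0.12). Of 25 genes of SMAD turnover, phosphatases and anchors, 0 passed by edgeR in TAC against DMSO (2 unadjusted, 0 by DESeq2). A fold change above 0 against DMSO was found for 19 in TAC, 16 in CSA and 17 in VCS. In TAC, PMEPA1, which sequesters receptor SMADs, stood at 0.27 (SE 0.11) and the phosphatase PPM1A at 0.25 (SE 0.09). By edgeR and by DESeq2, 0 genes of the 7 lists passed in CSA against DMSO, VCS against DMSO or CSA against VCS. At an unadjusted p under 0.05 the entries summed over the 7 lists numbered 4, 3 and 3, where 3.75%, 3.27% and 2.54% of all genes were. The lists held 20, 20, 16, 12, 19, 25 and 16 tested genes, and some genes stood on more than 1 list.

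**Figure D5:**
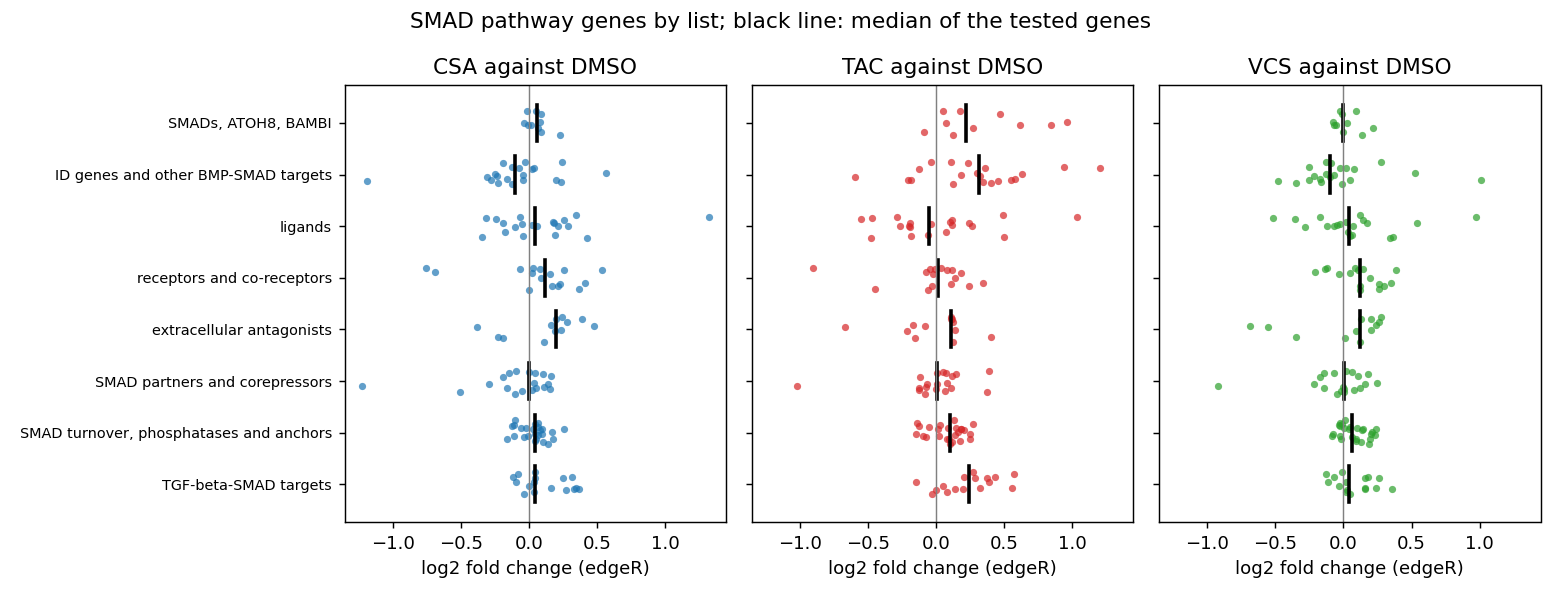
Log2 fold change against DMSO (horizontal axis) of the 10 genes and of the tested genes of 7 pathway lists, 1 panel per inhibitor. Points are genes and black lines medians. In TAC the median is 0.31 for BMP-SMAD targets and 0.24 for TGF-beta-SMAD targets.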

How the data were processed

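Poly(A) RNA of 12 libraries was sequenced with ERCC spike-ins and UMIs, per the labels' protocols. The submitters' processing notes name Salmon and GRCh38. The deposited table holds expected counts per gene, rounded to whole numbers by the authors as read from the values. Whether UMIs were collapsed, or the strand used in counting, is not stated in these sources. Genes overlapping the 10 had at most 22 counts. The table held 62262 genes and 0 spike-in entries, and 62252 had a symbol.

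Genes were filtered with filterByExpr (minimum count 10), scaled by TMM and fitted over all 12 libraries with edgeR 4.0.16 in R 4.3.3 (quasi-likelihood, group only, 8 residual degrees of freedom). P-values are two-sided and Benjamini-Hochberg adjusted over 19784 genes, with a threshold of 0.05. CPM is scaled by TMM, and log2 CPM has a prior count of 2. The fit was tested on simulated data. DESeq2 1.42.0, RLE scaling, no filter, fits of 2 groups, a block, mitochondrial counts removed and left-out libraries were alternatives. All 10 genes were named in every case. The rule added 3 genes per gene by likeness (mean log2 CPM of at least 1), and from each list those called and the 3 with the smallest p-values, of which some are printed. The members and lists were chosen with earlier results of these data known. Protein sequences were not used here.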

Additional observations from a re-analysis of the deposited data

How the results depend on the processing

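Over 20 alternatives, the fold changes of SMAD6, SMAD7, SMAD9 and ATOH8 in TAC stayed above 0 against each other group. These genes were grouped because all their TAC libraries lay above all others. Leaving out libraries could therefore hardly change this sign, and its stability supports nothing. Of the 60 fold changes of the 10 genes, 27 took either sign, such as SMAD1 in TAC against DMSO (-0.07 to 0.15) and BAMBI in TAC against CSA (-0.20 to 0.07). In CSA against DMSO, VCS against DMSO and CSA against VCS 0 members passed under all of them. For TAC against DMSO, CSA and VCS, where 0 members passed, DESeq2 called 3, 3 and 3, and no filter 3, 2 and 3. With mitochondrial counts removed, 1 (SMAD6) passed against VCS. Leaving out 1 library gave 0 to 1 against DMSO and VCS (ATOH8, without VCS replicate 1), and 0 against CSA. The SMAD class difference between TAC and DMSO stayed above 0: for inhibitory SMADs 0.25 to 0.33 with 1 library left out, and 0.43 without SMAD9. For feedback genes it was 0.26 to 0.34, 0.43 without SMAD9 and 0.43 without BAMBI. All TAC libraries lay above all others in both differences, so with 1 library left out the sign was fixed in advance.

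With the replicate block, 4, 4 and 4 members passed for TAC against DMSO, CSA and VCS (SMAD6, SMAD7, SMAD9 and ATOH8), also with mitochondrial counts removed. Deviations of same-numbered libraries from their group means correlated at 0.00694 to 0.532 over 18 pairs (median 0.187), and those of different numbers at -0.427 to 0.263 over 36 (median -0.086). All 18 same-number values were positive, so same-numbered libraries shared some variation, to a degree that differed between groups. Every pair exceeded 0.1 for TAC and DMSO (lowest 0.108), TAC and VCS (0.232) and CSA and DMSO (0.103), but not for the other groups. Deviations within a group cancel out, so the same-number and different-number values are not independent.

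Genes passing numbered 2 in CSA against DMSO, 7 in TAC against DMSO, 1 in VCS against DMSO, 2 in CSA against VCS, 6 in TAC against CSA and 5 in TAC against VCS. In that order, DESeq2 gave 7, 34, 7, 12, 48 and 36, no filter 86, 131, 69, 70, 87 and 101, and the replicate block 6, 41, 0, 6, 65 and 41 (6, 42, 0, 6, 66 and 41 with mitochondrial counts removed). Fits of 2 groups gave 1 and 0 for TAC and VCS against DMSO, and 1 and 0 for TAC against CSA and VCS. Without the 4 libraries numbered 3 the counts were 0, 3, 1, 6, 1 and 9, and mitochondrial removal gave 8 for TAC against VCS. With 1 library left out they ran 0 to 2, 0 to 10, 0 to 8, 0 to 7, 0 to 6 and 0 to 12; TAC against DMSO had 0 without TAC replicate 2 or 3. The cause was not tested. SMAD9 had the lowest counts, 147 to 425.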
